A study of Mus musculus with 6 samples.

Results

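A set of 10 genes typical of liver sinusoidal endothelial cells was read in 6 RNA sequencing libraries made from flow-sorted CD4+ T cells of mouse liver. The genes were chosen by name, as the rows Stab1, Stab2, Lyve1, Fcgr2b, Clec4g, Oit3, Kdr, Eng, Cdh5 and Pecam1 of a count table with 23505 gene rows; all 10 were found, and 10 of 10 passed the filter on low counts. The ConA+SIM group held 3 samples from wild-type mice given simvastatin, a statin, by gavage at 30 mg/kg and injected with concanavalin A (ConA), a lectin from jack bean whose injection activates T cells and leads to immune-mediated liver damage. The ConA group held 3 samples from wild-type mice given ConA and phosphate-buffered saline by the same route. In both groups gavage was daily over 5 days before ConA, with further doses 1 h before and 24 h after it. Cells positive for CD3 and CD4 and negative for CD8 and NK1.1 were sorted, a gate without a standard marker of endothelium. The sources used here give neither strain, sex, age and dose of ConA nor whether each sample is its own animal or a pool; the p-values therefore reflect variation among libraries that could be technical in part.

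Liver sinusoidal endothelial cells line the hepatic sinusoids with a thin, fenestrated layer that has no continuous basement membrane. They clear macromolecules and immune complexes from blood through scavenger and Fc receptors, and they are in direct contact with passing lymphocytes. T cells themselves are not known for scavenger receptors or VE-cadherin. The level of the genes was therefore read as a sign of endothelial RNA in the sorted material. Several of the genes are shared with leukocytes, and T cells also carry Pecam1. The summed level is thus not a measure of endothelial RNA alone. In such bulk samples fewer cells of a type and less RNA per cell cannot be told apart.

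The start regions of 4 of the genes are shown, chosen among the 6 with a promoter entry. Stab1 and Kdr had the lowest p-values of the 10 genes. Stab2 and Clec4g are among those taken as largely restricted to endothelium. Each window shown runs 5′ to 3′ from 250 bases before to 50 bases after a listed start (RefSeq, GRCm38.p6). That start need not be the outer end of the gene. The Kdr window, up to 75978705, lies inside the gene, which reaches 75979072. Capitals mark AGGAA on either strand, a form of the core bound by ETS factors, the family to which many endothelial regulators belong.
Stab1, chr14:31168592-31168891, minus strand: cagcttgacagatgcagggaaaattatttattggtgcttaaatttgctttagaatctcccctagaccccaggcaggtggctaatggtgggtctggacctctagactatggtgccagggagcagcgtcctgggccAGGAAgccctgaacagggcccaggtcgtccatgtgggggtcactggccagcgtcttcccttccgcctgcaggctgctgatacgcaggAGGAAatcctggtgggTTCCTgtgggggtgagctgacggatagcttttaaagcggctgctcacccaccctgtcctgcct
Stab2, chr10:87007893-87008192, minus strand: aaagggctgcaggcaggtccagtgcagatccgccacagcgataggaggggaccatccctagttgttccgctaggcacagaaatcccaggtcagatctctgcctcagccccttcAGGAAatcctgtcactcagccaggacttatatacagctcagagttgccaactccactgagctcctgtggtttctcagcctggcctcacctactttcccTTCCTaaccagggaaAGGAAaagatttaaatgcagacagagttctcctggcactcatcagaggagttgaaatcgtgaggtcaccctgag
Clec4g, chr8:3720602-3720901, minus strand: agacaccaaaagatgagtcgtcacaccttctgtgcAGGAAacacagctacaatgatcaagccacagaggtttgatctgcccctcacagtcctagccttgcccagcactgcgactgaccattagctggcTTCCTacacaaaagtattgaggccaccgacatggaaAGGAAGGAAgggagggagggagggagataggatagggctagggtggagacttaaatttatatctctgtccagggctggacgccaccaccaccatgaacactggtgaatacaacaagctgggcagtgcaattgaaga
Kdr, chr5:75978406-75978705, minus strand: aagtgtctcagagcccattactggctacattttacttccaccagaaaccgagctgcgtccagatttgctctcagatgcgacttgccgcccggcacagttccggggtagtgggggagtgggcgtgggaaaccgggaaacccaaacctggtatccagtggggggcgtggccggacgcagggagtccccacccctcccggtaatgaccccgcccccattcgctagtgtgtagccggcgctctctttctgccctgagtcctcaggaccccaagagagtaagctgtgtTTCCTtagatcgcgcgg
AGGAA or its reverse complement occurred 3 times in the Stab1, 3 times in the Stab2, 4 times in the Clec4g and 1 time in the Kdr window. Of 32851 windows of this length in the RefSeq table, 66.7% held it at least 1 time and 13.2% at least 3 times. In the Clec4g window a pair of matches overlaps by 1 base. Promoter entries were found for 6 of the 10 genes, the others being Fcgr2b with 1 match and Eng with 3.

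T cell genes were measured in every library, beside RNA of other cells. The 8 T cell genes with a row (Cd3d, Cd3e, Cd3g, Cd4, Cd5, Cd6, Cd28 and Lck) summed to between 3112 and 3345 CPM in ConA+SIM and between 2322 and 3568 CPM in ConA, where CPM is the count as a share of the scaled library total, in units of 1 per 1000000. The macrophage gene Lyz2 alone stood at 885, 173 and 811 CPM in ConA+SIM replicates 1 to 3 and at 1596, 621 and 565 CPM in ConA replicates 1 to 3. Total counts ran from 17549429 to 25031862 per library. The share of tested genes with 0 counts was 5.71%, 18.4% and 2.76% in ConA+SIM replicates 1 to 3 and 9.98%, 9.34% and 4.02% in ConA replicates 1 to 3. Expressed genes were thus missing from some libraries at high depth, and 29.9% of tested genes had a library with 0 counts; such gaps touched Stab2, Cdh5 and, nearly, Lyve1.

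All 10 endothelial genes were detected, and ConA replicate 2 had the highest level of each of them. Summed over the genes, the level was 401, 753 and 779 CPM in ConA+SIM replicates 1 to 3, against 438, 2211 and 771 CPM in ConA replicates 1 to 3. Apart from ConA replicate 2 the groups covered the same range. The mean was 644 ± 211 CPM in ConA+SIM and 1140 ± 942 CPM in ConA (SD, n = 3 each), a ratio of 0.565, and without ConA replicate 2 the ratio was 1.07, or 1.06 with the scaling recomputed. The sum came to 12.0%, 22.5% and 25.0% of the summed T cell genes in ConA+SIM replicates 1 to 3 and to 16.3%, 95.2% and 21.6% in ConA replicates 1 to 3. It includes genes shared with leukocytes. Those largely restricted to endothelium made up from 7.86% of it, in ConA+SIM replicate 1, to 51.5%, in ConA+SIM replicate 2. ConA replicate 2 was the highest library for 10 of the 10 genes and for 18.6% of all tested genes; as the genes share these libraries, the 10 are not independent observations. The lowest value fell in ConA+SIM replicate 1 for 5 genes, in ConA replicate 1 for 3 and in ConA+SIM replicate 2 for 2.

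**Figure D1:**
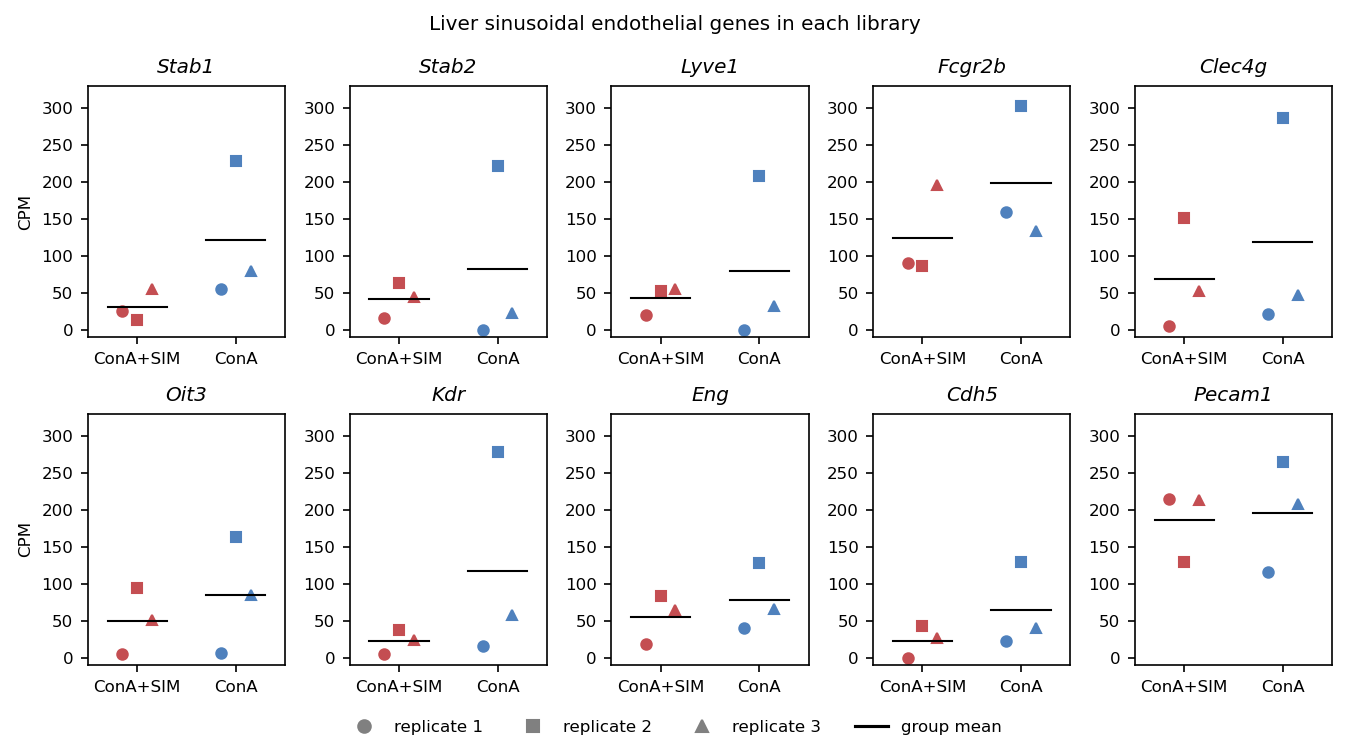
Level of each endothelial gene (CPM, linear axis) in the 3 ConA+SIM libraries (left) and the 3 ConA libraries (right); marker shape gives the replicate and the line the group mean. ConA replicate 2 is the highest point in all 10 panels, from 127 CPM for Eng to 302 CPM for Fcgr2b.

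No endothelial gene differed between the groups by the edgeR quasi-likelihood test: 0 of 10 had an adjusted p under 0.05, where 0.542% of the 10509 tested genes did, all of them higher in ConA+SIM, and 0% were called lower. The fitted log2 fold change, ConA+SIM over ConA, was below 0 in 10 of 10, against 52% of all tested genes, with a median of -0.84 beside -0.041 over all tested genes. Without ConA replicate 2 it was below 0 in 4 of 10, with a median of 0.082. Stab1 and Kdr, 2 of the 10, had an unadjusted p under 0.05, where 3.54% of tested genes were lower at that level. In 1 gene, Stab1, all ConA+SIM values lay below all ConA values, as in 8.57% of tested genes, and in 0 genes did they lie above, as in 9.18%.

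**Figure D2:**
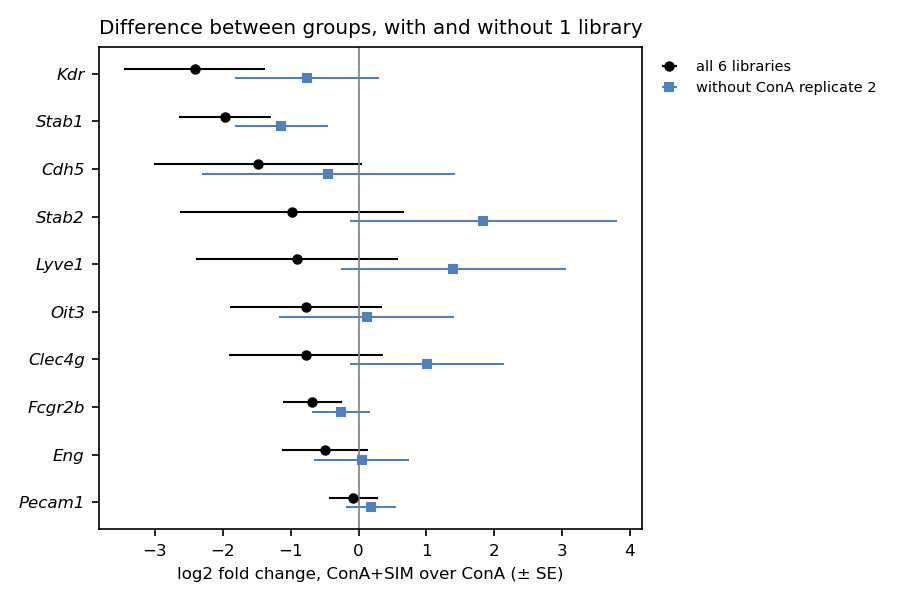
Log2 fold change of each endothelial gene, ConA+SIM over ConA, with its standard error, fitted to all 6 libraries (black circles) and without ConA replicate 2 (blue squares). With all libraries the values run from -2.42 for Kdr to -0.074 for Pecam1, and without that library 6 of the 10 lie above 0.

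Among the uptake receptors, Stab1 and Stab2 encode the stabilins, large scavenger receptors of sinusoidal endothelium; Stab1 is also made by some macrophages. Stab1 (chromosome 14, 31139017 to 31168651, GRCm38) stood at 25.5, 13.1 and 54.7 CPM in ConA+SIM replicates 1 to 3, against 55.7, 229 and 79.6 CPM in ConA replicates 1 to 3. The groups did not overlap, though the highest ConA+SIM and the lowest ConA library were nearly level. The means were 31.1 ± 21.4 CPM in ConA+SIM and 121 ± 93.7 CPM in ConA (SD, n = 3 each), and the log2 fold change was -1.96 ± 0.68 (SE), which missed the threshold (edgeR, adjusted p = 0.392). It stayed below 0 in all 14 alternative fits, from -2.65 to -1.14, and passed only in DESeq2 (adjusted p = 0.0103; adjusted p up to 0.763 in the others), which called 4.15% of the genes with an adjusted p lower in ConA+SIM. Macrophage RNA also varied between the libraries: 13 Kupffer cell and macrophage genes summed to 1228, 263 and 1055 CPM in ConA+SIM replicates 1 to 3 and to 2224, 1113 and 953 CPM in ConA replicates 1 to 3. Lyz2 made up most of each macrophage sum. Of the 10 tested macrophage genes, 5 were highest in ConA replicate 2, as Stab1 was, C1qa and Cd68 among them. In these 2 genes all ConA+SIM values lay below all ConA values, as in 8.57% of all tested genes. In 0 macrophage genes did they lie above, as in 9.18%. The lowest Stab1 value and the lowest macrophage sum were both in ConA+SIM replicate 2, the library with the largest share of tested genes at 0 counts (18.4%). Within ConA the orders differed without being fully opposite. Replicate 1 had the lowest Stab1 level and the highest macrophage sum. Replicate 2, with the highest Stab1 level, had a macrophage sum below that of replicate 1 and above that of replicate 3. The part of macrophage RNA in the Stab1 difference was not tested.

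Stab2 (chromosome 10, 86841194 to 87008038), the stabilin that takes up hyaluronan, stood at 16.3, 63.8 and 44.0 CPM in ConA+SIM replicates 1 to 3 and at 0, 222 and 22.9 CPM in ConA replicates 1 to 3. The ConA libraries thus enclosed the ConA+SIM libraries from both sides. ConA replicate 1 had 0 Stab2 counts, which allows up to 0.130 CPM, beside 1289 counts of Stab1. The log2 fold change was -0.98 ± 1.65 (adjusted p = 0.999), and 1.84 without ConA replicate 2. Per kilobase of exon, the level of Stab1 relative to Stab2 was 1.60, 0.211 and 1.28 in ConA+SIM replicates 1 to 3 and 1.06 and 3.58 in ConA replicates 2 and 3, so the related receptors did not keep a fixed proportion.

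Lyve1 (chromosome 7, 110850607 to 110862953), a hyaluronan receptor of sinusoidal and lymphatic endothelium and of some macrophages, had the same gap as Stab2. It stood at 20.6, 53.0 and 54.8 CPM in ConA+SIM replicates 1 to 3, against 0.0864, 208 and 32.1 CPM in ConA replicates 1 to 3, the first of these from 2 counts. The ConA libraries again lay on both sides of the ConA+SIM ones (log2 fold change -0.90 ± 1.49, adjusted p = 0.999; 1.40 without ConA replicate 2).

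Fcgr2b (chromosome 1, 170960558 to 170976071) encodes the inhibitory Fc receptor by which sinusoidal endothelium clears immune complexes, and is also a receptor of B cells and macrophages. Its level was 90.0, 85.9 and 196 CPM in ConA+SIM replicates 1 to 3, against 159, 302 and 134 CPM in ConA replicates 1 to 3. The groups overlapped through ConA+SIM replicate 3 (log2 fold change -0.68 ± 0.43, adjusted p = 0.819). B cell and plasma cell genes summed to 529, 601 and 978 CPM in ConA+SIM replicates 1 to 3 and to 126, 1347 and 248 CPM in ConA replicates 1 to 3. The library highest in Fcgr2b within each group was also the highest in B cell RNA, but the remaining libraries had the opposite order. ConA replicate 1 had a lower B cell sum than ConA replicate 3 and more Fcgr2b. ConA+SIM replicate 2 had a higher B cell sum than ConA+SIM replicate 1 and slightly less Fcgr2b. The part of B cells and macrophages in the Fcgr2b level was not tested.

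Clec4g and Oit3 were taken, by background knowledge, as genes not shared with leukocytes, which was not tested here. Clec4g (chromosome 8, 3707066 to 3720695) encodes LSECtin, a lectin of sinusoidal endothelium that in mice restrains activated T cells. It stood at 5.55, 151 and 52.0 CPM in ConA+SIM replicates 1 to 3 and at 21.5, 287 and 47.0 CPM in ConA replicates 1 to 3. The groups overlapped widely, and the highest library exceeded the lowest 51.6-fold (log2 fold change -0.77 ± 1.13, adjusted p = 0.999; 1.01 without ConA replicate 2). Oit3 (chromosome 10, 59422960 to 59441779), a secreted protein gene found in sinusoidal endothelium, was at 4.80, 93.5 and 50.3 CPM in ConA+SIM replicates 1 to 3 and at 6.48, 164 and 84.2 CPM in ConA replicates 1 to 3. Replicate 1 was the lowest library of each group for Oit3 (log2 fold change -0.77 ± 1.12, adjusted p = 0.999; 0.12 without ConA replicate 2).

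Both growth factor receptor genes were lowest in replicate 1 and highest in replicate 2 of each group, as Clec4g and Oit3 were. They differed in span, 58.0-fold between the highest and the lowest library for Kdr and 7.06-fold for Eng. Kdr (chromosome 5, 75932827 to 75979072), the main receptor for vascular endothelial growth factor, was at 4.80, 37.3 and 23.9 CPM in ConA+SIM replicates 1 to 3, against 16.2, 279 and 57.6 CPM in ConA replicates 1 to 3. ConA replicate 1 lay inside the ConA+SIM range. The log2 fold change of -2.42 ± 1.04 was the farthest below 0 of the 10 and did not pass (adjusted p = 0.552), and without ConA replicate 2 it was -0.75. Eng (chromosome 2, 32646595 to 32682669), encoding endoglin, a co-receptor for bone morphogenetic proteins that activated macrophages also carry, was at 18.0, 83.5 and 64.5 CPM in ConA+SIM replicates 1 to 3 and at 40.4, 127 and 66.1 CPM in ConA replicates 1 to 3. Eng overlapped between the groups (log2 fold change -0.50 ± 0.63, adjusted p = 0.999; 0.045 without ConA replicate 2).

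Of the junction genes, Cdh5 (chromosome 8, 104101613 to 104144504) encodes VE-cadherin, the adhesion molecule that defines endothelial junctions. It was at 0, 42.5 and 26.2 CPM in ConA+SIM replicates 1 to 3, against 22.5, 129 and 39.6 CPM in ConA replicates 1 to 3. The 0 in ConA+SIM replicate 1 allows up to 0.160 CPM, and the groups overlapped (log2 fold change -1.48 ± 1.53, adjusted p = 0.999; -0.45 without ConA replicate 2). Pecam1 (chromosome 11, 106654213 to 106715281), or CD31, is shared by endothelium, platelets and leukocytes, T cells among them. Its level was 215, 130 and 213 CPM in ConA+SIM replicates 1 to 3 and 115, 264 and 208 CPM in ConA replicates 1 to 3. It varied least of the 10, 2.29-fold between the highest and the lowest library, and overlapped fully (log2 fold change -0.074 ± 0.35, adjusted p = 0.999). Platelet genes were at or near 0: of Pf4, Ppbp, Itga2b, Gp1ba, Gp9 and Gp6, 3 had no count in any library and the highest sum was 2.52 CPM, in ConA replicate 3.

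Divided by background knowledge, with the values already known, 5 genes are largely restricted to endothelium (Stab2, Kdr, Cdh5, Clec4g and Oit3) and 5 are shared with leukocytes (Stab1, Pecam1, Lyve1, Eng and Fcgr2b). The restricted genes summed to 31.5, 388 and 196 CPM in ConA+SIM replicates 1 to 3, against 66.6, 1080 and 251 CPM in ConA replicates 1 to 3. That is a 34.3-fold span in which ConA+SIM and ConA libraries are interleaved, with replicate 1 the lowest and replicate 2 the highest of each group. The shared genes summed to 369, 365 and 583 CPM in ConA+SIM replicates 1 to 3 and to 371, 1131 and 519 CPM in ConA replicates 1 to 3, a span of 3.10-fold. The restricted genes therefore made up 7.86%, 51.5% and 25.2% of the total in ConA+SIM replicates 1 to 3 and 15.2%, 48.8% and 32.6% in ConA replicates 1 to 3. Without ConA replicate 2 the mean of the restricted genes in ConA+SIM was 1.29 times that in ConA, and with it 0.440 times.

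**Figure D3:**
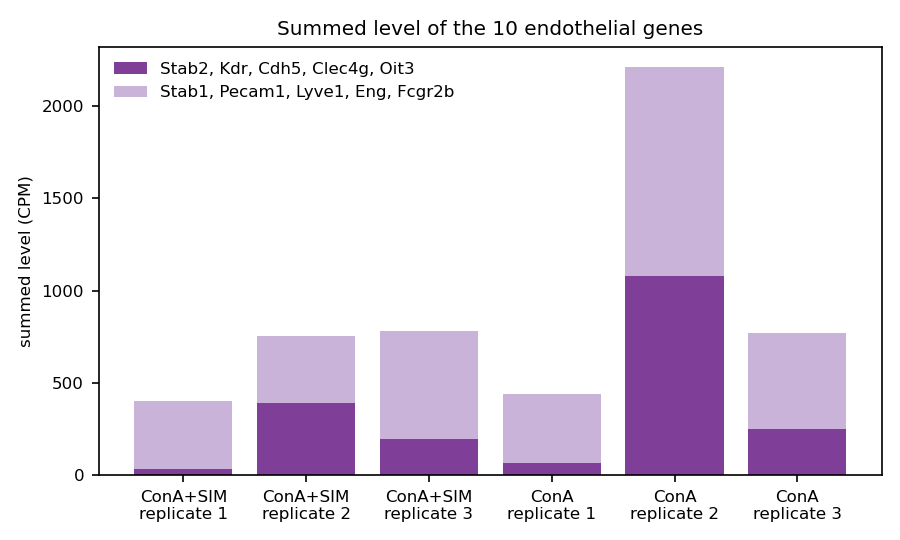
Summed level (CPM) of the 10 endothelial genes in each library, split into the 5 largely restricted to endothelium (dark) and the 5 shared with leukocytes (light). ConA replicate 2 reaches 2211 CPM and the other 5 libraries 401 to 779 CPM, while the dark part runs from 31.5 CPM in ConA+SIM replicate 1 to 1080 CPM in ConA replicate 2.

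Levels were compared between genes per kilobase of exon, as CPM per kb. In ConA+SIM the order of the means was Pecam1 at 45.0 ± 11.8, Fcgr2b at 32.5 ± 16.3, Clec4g at 28.6 ± 30.5, Oit3 at 18.2 ± 16.3, Eng at 15.5 ± 9.42 and Lyve1 at 14.8 ± 6.65 CPM per kb, and then Cdh5, Stab2, Stab1 and Kdr between 5.73 and 3.72 CPM per kb (SD, n = 3). In ConA it was Fcgr2b at 52.1 ± 23.9, Clec4g at 48.7 ± 60.2 and Pecam1 at 47.4 ± 18.2 CPM per kb, with Stab2 last at 9.92 ± 14.8 CPM per kb. All 9 pairs of neighbours overlapped between libraries in each group, so the order within them is not resolved. The long stabilin transcripts, with 7999 nt of exon for Stab1 and 8228 nt for Stab2, had low means on this scale in both groups. The mean of the shorter Clec4g, at 2430 nt, was higher, but not in every library. In ConA+SIM replicate 1 Clec4g was at 2.28 CPM per kb, below Stab1 at 3.18, and in ConA replicate 1 at 8.83 beside 6.96 CPM per kb.

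Further sinusoidal genes were likewise highest in ConA replicate 2. Of 12 other sinusoidal genes 10 were tested, 0 passed in either direction, 8 had a log2 fold change below 0 and 10 of 10 were highest in ConA replicate 2. The list summed to 350, 594 and 400 CPM in ConA+SIM replicates 1 to 3, against 176, 1239 and 487 CPM in ConA replicates 1 to 3, with a median log2 fold change of -0.61. The members with the highest mean CPM were Ehd3, a membrane trafficking gene (82.1 ± 60.4 CPM in ConA+SIM and 147 ± 129 CPM in ConA), the lysosomal protease gene Ctsl (129 ± 21.9 CPM in ConA+SIM and 116 ± 87.2 CPM in ConA), the fatty acid scavenger receptor gene Cd36 (70.3 ± 15.3 CPM in ConA+SIM and 65.6 ± 64.7 CPM in ConA) and the mannose receptor gene Mrc1 (50.6 ± 17.7 CPM in ConA+SIM and 71.8 ± 60.7 CPM in ConA). Macrophages also express Ctsl, Cd36 and Mrc1.

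Junction and lineage genes of endothelium in general had a lower sum than the 10 genes, which include genes shared with leukocytes, in each library. Against only the genes largely restricted to endothelium, their sum was higher in ConA+SIM replicate 1 (75.1 beside 31.5 CPM). Icam2 made up 40.0 CPM of the sum there. In each other library their sum was lower than that of the restricted genes. Of 15 such genes 11 were tested, 0 passed in either direction, 9 had a log2 fold change below 0 (median -0.43) and 8 were highest in ConA replicate 2. The list summed to 75.1, 260 and 146 CPM in ConA+SIM replicates 1 to 3 and to 51.7, 504 and 125 CPM in ConA replicates 1 to 3. Those with the highest mean CPM were Egfl7 (42.1 ± 37.0 CPM in ConA+SIM and 42.3 ± 64.2 CPM in ConA), which encodes a secreted endothelial protein, the adhesion genes Icam2 (45.3 ± 14.0 CPM in ConA+SIM and 33.5 ± 8.12 CPM in ConA) and Mcam (17.9 ± 11.6 CPM in ConA+SIM and 24.0 ± 21.3 CPM in ConA), and the junction gene Jam2 (14.4 ± 20.3 CPM in ConA+SIM and 33.6 ± 58.1 CPM in ConA). Cldn5, the claudin of tight endothelial barriers, and Vwf, von Willebrand factor, had 0 counts in all 6 libraries, and the endothelial transcription factor genes Erg and Sox17 did not exceed 0.118 and 0.747 CPM. Gata4, a transcription factor that directs sinusoidal identity in mice, stood at 0, 25.1 and 0 CPM in ConA+SIM replicates 1 to 3 and at 0, 18.2 and 9.99 CPM in ConA replicates 1 to 3, so it was seen in both libraries numbered 2 and in ConA replicate 3.

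The ligands and partners of Kdr and Eng were taken from 2 further lists. In the list of vascular endothelial growth factor and angiopoietin genes 9 of 12 were tested, 0 passed in either direction, 8 had a log2 fold change below 0 (median -1.19) and 6 were highest in ConA replicate 2. The ligand gene Vegfa stood at 17.3, 0 and 5.13 CPM in ConA+SIM replicates 1 to 3, against 58.5, 48.3 and 24.0 CPM in ConA replicates 1 to 3. All ConA+SIM values lay below all ConA values for Vegfa and for the receptor gene Flt1, 2 of the 9 tested genes beside 8.57% of all tested genes, and both genes had 0 counts in ConA+SIM replicate 2. The receptor phosphatase gene Ptprb (25.8 ± 23.8 CPM in ConA+SIM and 95.0 ± 103 CPM in ConA) and the lymphatic growth factor receptor gene Flt4 (21.2 ± 24.4 CPM in ConA+SIM and 66.4 ± 83.2 CPM in ConA) had maxima of 213 and 162 CPM in ConA replicate 2, whereas Nrp1, a co-receptor that T cells also carry, stood at 75.1 ± 12.2 CPM in ConA+SIM and 85.9 ± 4.80 CPM in ConA.

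In the list around endoglin 11 of 15 genes were tested, 0 passed in either direction, 8 had a log2 fold change below 0 (median -0.36) and 1 was highest in ConA replicate 2. The ligand genes Gdf2, Bmp6 and Bmp10 had 0 counts in all libraries. The members with the highest mean CPM were Tgfbr2 (142 ± 56.0 CPM in ConA+SIM and 181 ± 62.3 CPM in ConA), Tgfb1 (97.2 ± 5.40 CPM in ConA+SIM and 140 ± 21.0 CPM in ConA), Smad7 (109 ± 97.1 CPM in ConA+SIM and 104 ± 51.5 CPM in ConA) and Tgfbr1 (38.0 ± 15.8 CPM in ConA+SIM and 49.7 ± 27.7 CPM in ConA), the receptors, ligand and inhibitor of transforming growth factor beta signalling that T cells use as well. All ConA+SIM values lay below all ConA values in 3 of the 11 tested genes, Tgfb1, Acvrl1 and Smad1, and above them in 1, Id1, where 8.57% of all tested genes lay below and 9.18% above in this way.

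Marker lists of other cells were compared for the high level of ConA replicate 2. Against the median of the other 5 libraries, that library was 2.93 times as high in the 10 endothelial genes, 3.10 times in the other sinusoidal genes and 2.55 times in B cell and plasma cell genes. It was 1.05 times as high in the sum of Kupffer cell and macrophage genes, where ConA replicate 1 was highest. The factor was 1.03 in hepatocyte genes and 0.697 in T cell genes. Lyz2 made up most of the macrophage sum, 1596 of 2224 CPM in ConA replicate 1 and 621 of 1113 CPM in ConA replicate 2. Single genes were highest in ConA replicate 2 for 5 of 10 tested in the macrophage list, 6 of 7 in the B cell list and 0 in the hepatocyte and T cell lists. The share over all tested genes was 18.6%. Stellate cell and fibroblast genes were near 0, with 6 of 10 at 0 in all libraries and sums of at most 38.1 CPM, most of it from Hgf. Dendritic cell genes summed to 129, 401 and 249 CPM in ConA+SIM replicates 1 to 3 and to 142, 162 and 113 CPM in ConA replicates 1 to 3, with no maximum in ConA replicate 2. The genes excluded by the gate, Cd8a, Cd8b1 and Klrb1c, which encodes NK1.1, summed to 69.8, 97.5 and 91.5 CPM in ConA+SIM replicates 1 to 3 and to 39.8, 50.7 and 24.7 CPM in ConA replicates 1 to 3. Of these lists, 0 genes passed the edgeR test in either direction, and in the macrophage list 9 of 10 tested genes had a log2 fold change below 0 (median -1.01). How these admixtures relate to the level of the 10 genes was not tested.

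**Figure D4:**
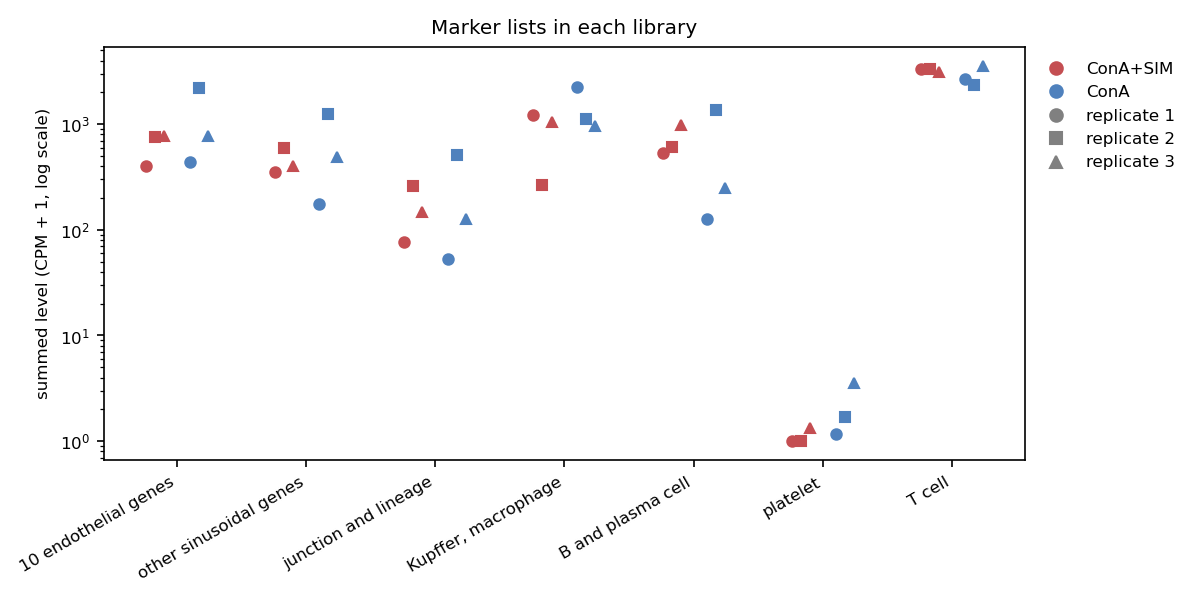
Summed level of each gene list (CPM + 1, log axis) in the 3 ConA+SIM libraries (red, left) and the 3 ConA libraries (blue, right), with marker shape for the replicate. The 3 endothelial lists shown and the B cell list peak in ConA replicate 2, the macrophage list in ConA replicate 1, and the platelet list stays at or below 2.52 CPM.

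Among tested genes outside the 10, Saysd1, Rnf6, Eml4, Selenop and Twsg1 had profiles over the 6 libraries most like the sum of the 10. Likeness was the root mean square difference of centred log2 levels, 0.254, 0.259, 0.271, 0.277 and 0.282 for these genes, and 0.436 for Eng, the most alike of the 10 themselves. Selenop, the selenium transport protein gene, had the highest CPM of them, at 272, 508 and 342 CPM in ConA+SIM replicates 1 to 3 and 252, 983 and 525 CPM in ConA replicates 1 to 3. Stab2, Cdh5 and Lyve1 were the least alike of the 10, at 3.04, 2.87 and 2.72, and these are the genes with a library at or near 0.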

How the data were processed

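RNA of 6 samples of sorted liver CD4+ T cells was sequenced, 3 per group. The submitters' processing notes name HISAT2 2.1.0 and build GRCm38; counter, annotation, strand setting and handling of multiply matching reads are not stated in those sources. As deposited, the single table holds unnormalized whole-number counts, with the sample title over each column; 0 columns were left unused. The 10 genes have no further copy rows.

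From these counts genes were kept with filterByExpr of edgeR 4.0.16 (R 4.3.3), scaled by TMM and tested by the robust quasi-likelihood F test, ConA+SIM over ConA, without covariates, with Benjamini-Hochberg adjustment over 10509 genes and a threshold of 0.05. CPM is relative to the TMM-scaled total; an SE is the fold change divided by the root of F. A gene with 0 counts allows 3 counts at 95% confidence, for counting error only. Exon length is the union of exons in GENCODE M21 basic. Gene coordinates and promoters are from RefSeq.

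The genes, lists and tests were chosen with earlier results of these data known. Named are the 10 genes, the 4 most abundant of each other endothelial list, the 3 most abundant of each marker list (some given only in the list's sum), and the 5 genes most like the summed level; other names were added after their values were seen. Alternatives were RLE scaling, no filter, at least 5 CPM in 3 or more libraries, voom of limma 3.58.1 with and without sample weights, DESeq2 1.42.0, the replicate number as a block, offsets for transcript length (95.5% of tested genes had one) and leaving out each library. No 2 libraries of a group agreed within sampling noise (chi-square 142 to 298 times its degrees of freedom). In simulated data for ConA+SIM against ConA, 13.9% of 4-fold changes among 9908 genes were recovered, with 2 unchanged genes called.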

Additional observations from a re-analysis of the deposited data

How the results depend on the processing

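The number of genes past the threshold was 57 in edgeR and moved to 555 with DESeq2, 115 with limma-voom, 114 with limma-voom and sample weights, 0 with the replicate block, 0 with transcript length offsets and from 0 to 3 when a library was left out. RLE scaling and both filters gave 58 to 70. The replicate numbers are not shown to pair samples: deviations of same-numbered samples correlated by 0.0111, 0.00878 and 0.0328. Of the 10 endothelial genes, 10 had a log2 fold change below 0 with all libraries and 4 to 10 when a library was left out, the lowest without ConA replicate 2; the median ran from -1.51 to 0.082 and the ratio of summed levels from 0.430 to 1.06. Over 140 refits of single genes 124 kept direction and side of the threshold, 15 changed sign and Stab1 passed once, with DESeq2. Stab2 was 3.03 with limma-voom, 2.24 with sample weights and 1.40 with the replicate block. Lyve1 was 2.30, 1.70 and 1.21 in the same fits. Cdh5 kept its sign in these fits, at -3.94, -5.33 and -2.64, beside -1.48 in the edgeR fit without a block. Pecam1 was 0.11 with sample weights and 0.072 with length offsets. With a library left out Stab2 ran from -1.57 to 1.84, Lyve1 from -1.49 to 1.40, Clec4g from -2.04 to 1.01, Oit3 from -1.62 to 0.12, Eng from -0.92 to 0.045 and Pecam1 from -0.36 to 0.19. Fits without 1 library have fewer samples; for the others the cause was not tested. With 3 samples a group and 0 counts in single libraries, the standard errors of the log2 fold change reached 1.65 for Stab2, 1.49 for Lyve1 and 1.53 for Cdh5, and changes of that size could not be resolved.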
